A study of Mus musculus with 10 samples.

Results

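Rearranged kappa light chain transcripts that use the J segment Igkj2, here called J2 joins, were taken as every line of the deposited table whose J call without its allele is IGKJ2. They hold 37420 of the 161780 counts of the table and 10126 of its 42401 clonotypes, where a clonotype is 1 combination of V segment, J segment and nucleotide CDR3 in 1 sample. The samples were small pre-B cells, purified by flow cytometry from mouse bone marrow, and RNA was the starting material of the Igk amplicon libraries. All mice were C57Bl6 and 6 to 12 weeks old, 5 samples carried the genotype label WT and 5 the label rsCBE, which the series' design text writes with a delta and does not spell out. No label states a promoter, a Cre or pooling of animals, and none says whether replicates came from separate animals, so p-values measure only the spread between these samples. Only Igk joins are in the table, so the small pre-B label could not be set against other genes of that stage here.

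The kappa light chain gene is built by joining 1 of many V segments to 1 of a few J segments that lie in a row before the constant region. The enzyme complex that cuts at their signal sequences leaves ends that lose or gain bases before they are joined, so the third complementarity-determining region (CDR3), which spans the joint, varies in length and only some joins keep the reading frame. V segments on the same strand as the J segments join by deletion of the DNA between them, and those on the opposite strand join by inversion. A kappa allele can rearrange again from a V segment further upstream to a J segment further downstream.

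Igkj2 (ENSMUSG00000076605.2) is an annotated J segment on the plus strand of chromosome 6, at chr6:70722916-70722954 in GRCm38 (GENCODE M21). Igkj1 lies before it, and Igkj3, Igkj4 and Igkj5 start 307, 632 and 970 bases after its start. The 5 germline J segments are shown because J2 differs from the others in the number of its CDR3 bases. Capitals mark the bases before the conserved phenylalanine codon, which are those that can stand in the CDR3.
Igkj1: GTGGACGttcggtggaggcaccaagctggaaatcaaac
Igkj2: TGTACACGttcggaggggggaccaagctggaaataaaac
Igkj3: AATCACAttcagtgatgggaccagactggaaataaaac
Igkj4: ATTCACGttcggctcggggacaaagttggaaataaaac
Igkj5: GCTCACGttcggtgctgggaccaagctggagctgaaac
Igkj2 is 39 bases long with 8 CDR3 bases, and the other J segments are 38 bases long with 7. Germline V ends were matched in the annotation's transcripts for 111 of 114 V segments. Of these, 72 end 23 bases after the start of the CDR3, so an untrimmed join with J2 would have 31 CDR3 bases, 1 more than a multiple of 3, against 30 with the other J segments. For the 26 V segments with 25 bases the sums are 33 with J2 and 32 with the others.

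The following CDR3 sequences show what J2 joins look like, with capitals for the bases that match the end of Igkj2. The first pair are the commonest J2 clonotypes by mean share, the third is the only 8-codon join among the 10 commonest, and the last, outside those 10, was chosen after its values were seen because it keeps all of the J2 bases and was high in 1 sample.
Igkv8-16 QQHLHIPYT: cagcagcatttacacattccGTACACG
Igkv2-137 MQHLEYPYT: atgcaacatctagaatatccGTACACG
Igkv8-27 HQYLSSYT: catcaatacctctcctcGTACACG
Igkv8-21 KQSYNLMYT: aagcaatcttataatcttaTGTACACG
In the first pair, 20 bases of the germline V end stand directly beside 7 bases of J2, with 3 V bases and 1 J2 base lost and no base from neither end. The proline before the final tyrosine and threonine is read from the last 2 V bases and the first J2 base kept. All of the 10 commonest J2 clonotypes kept 7 J2 bases, 9 of them were 27 nucleotides long, and 9 were present in all 10 samples. Their summed share of J2 counts was 18.7% ± 2.96 among WT samples and 17.5% ± 1.42 among rsCBE samples (SD, n = 5 each).

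J2 joins were supported by 6583, 5523, 3231, 702 and 1953 counts in WT replicates 1 to 5 and by 5391, 4996, 3568, 3078 and 2395 counts in rsCBE replicates 1 to 5. WT replicate 4 was the shallowest sample, with 193 J2 clonotypes, while the remaining WT samples had 474 to 1700 and the rsCBE samples 651 to 1636. Replicates 1 and 2 of each genotype were single libraries, and replicates 3 to 5 were each deposited as parts a and b, which were added. J2 values of the 2 parts were close, with in-frame shares that differed most in rsCBE replicate 4, at 75.9% in part a and 72.6% in part b.

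The J2 share of all counts was 28.9, 25.8, 23.4, 22.6 and 21.3% in WT replicates 1 to 5. In rsCBE replicates 1 to 5 it was 22.4, 21.4, 19.5, 21.6 and 20.5%. The groups overlapped, with 3 rsCBE values at the lower end of the WT range and those of rsCBE replicates 3 and 5 below it. WT averaged 24.4% ± 3.01 and rsCBE 21.1% ± 1.09 (SD, 5 samples each). The difference of -3.30 percentage points did not pass the threshold of 0.05 (exact permutation p = 0.0397, adjusted over the 5 J segments 0.0661, two-sided). It was -5.45 in the single-library samples and -1.86 in the split-library samples, and it passed without WT replicate 5 (-4.07, exact permutation, adjusted p = 0.0132). That was the only 1 of the 10 fits leaving out 1 sample that passed. The others fell to as little as -2.17, with exact permutation adjusted p up to 0.159. Cells that carry a join and RNA made per cell cannot be told apart in these counts. The Wilson 95% interval of the J2 share ran from 21.1 to 24.1% in WT replicate 4 and was narrower in the other samples, and such intervals cover counting error only, since amplified reads are not independent molecules.

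Most J2 joins kept the reading frame. An in-frame join was one whose CDR3 is a multiple of 3 long and has no stop codon. The in-frame share of J2 counts was 79.4, 73.4, 69.7, 70.8 and 74.6% in WT replicates 1 to 5 and 75.2, 70.4, 68.2, 74.5 and 66.1% in rsCBE replicates 1 to 5. The genotypes overlapped, and their difference of -2.70 percentage points did not pass (exact permutation p = 0.317, adjusted over the 4 J segments 0.317). It ran from -3.78 without rsCBE replicate 1 to -1.25 without WT replicate 1, and passed in none of the 10 fits that left out a sample. A further 1.31% ± 0.222 of J2 counts in WT, and 1.11% ± 0.114 among rsCBE samples, had a length divisible by 3 and a stop codon (SD, n = 5 each). Out-of-frame J2 joins were split almost evenly between both wrong frames, with 51.6% ± 3.15 in WT and 49.2% ± 2.19 in rsCBE 1 base over a multiple of 3 (SD, n = 5 each).

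Within each of the 10 samples the in-frame share was higher among J2 joins than among the pooled joins of the other J segments, by 0.649 to 10.7 percentage points. The mean gap was 5.49 (exact sign-flip permutation p = 0.00195, the smallest that 10 samples allow, adjusted over the 4 J segments 0.00391). The gap stood against Igkj4 and Igkj5 and not against Igkj1. J2 exceeded Igkj4 by 6.70 points and Igkj5 by 8.45 points, in 10 of 10 samples each (exact sign-flip permutation, both adjusted p = 0.00293 over these 3 contrasts, which were added after seeing the data). Against Igkj1 the gap was 0.643 points, above 0 in 4 of 10 samples (exact sign-flip permutation p = 0.535). The mean in-frame share over all samples was 71.6% for Igkj1, 72.2% for J2, 65.5% for Igkj4 and 63.8% for Igkj5. The gap to the pooled other joins averaged 3.86 points in WT and 7.12 in rsCBE, a difference of 3.26 that did not pass after adjustment (exact permutation p = 0.0317, adjusted over 6 measures 0.119). In that pool the Igkj5 share of all counts was 28.6% in WT and 39.2% in rsCBE, and the part of this shift in the gap was not tested.

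**Figure D1:**
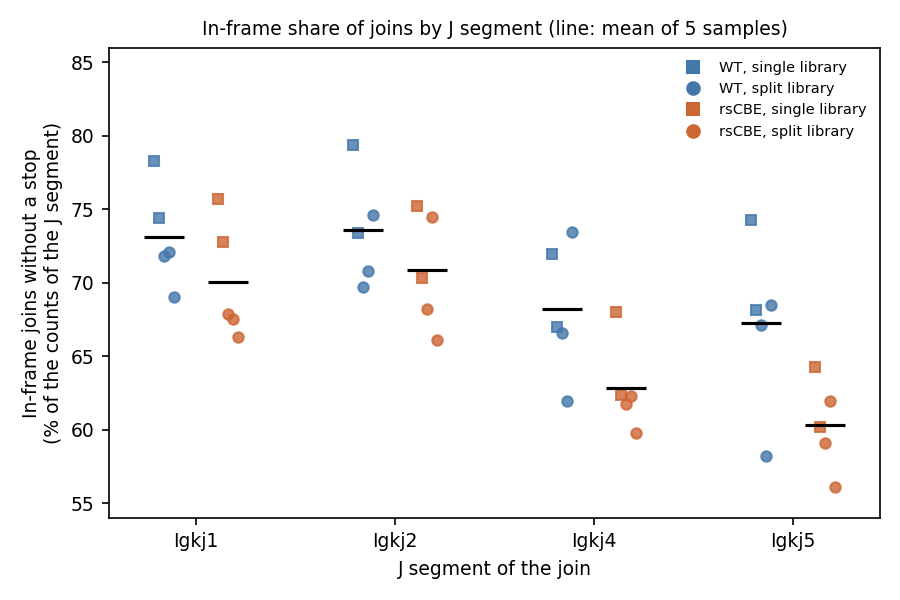
In-frame joins without a stop as a percentage of the counts of each J segment (vertical axis) in each sample, with squares for single-library and circles for split-library samples and lines for the mean of 5 samples. J2 values lie from 66.1 to 79.4%, level with Igkj1 and above most values of Igkj4 and Igkj5.

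The in-frame share of J2 joins was also read by the length of the germline V end, with no test. Joins of V segments with 23-base ends made up 76.4% of the J2 counts with a matched V end, and 73.1% ± 3.65 of them were in frame (SD, n = 10). Joins of V segments with 25-base ends made up 10.3% and were in frame in 69.1% ± 9.17 (SD, n = 10). These ranges overlapped, from 68.9 to 80.6% and from 53.99 to 85.9%. With Igkj1 the corresponding means were 71.8 and 60.6%, with Igkj4 65.0 and 77.1%, and with Igkj5 62.6 and 67.3%.

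The CDR3 of J2 joins centred on 27 nucleotides, or 9 codons, the usual length of a mouse kappa CDR3. Lengths ran from 5 to 43 nucleotides, and only 36 counts were under 18 and 24 counts over 36 nucleotides. Among in-frame J2 joins 27 nucleotides made up 83.5, 77.7, 74.3, 77.7 and 78.9% in WT replicates 1 to 5, and 78.5, 77.0, 72.7, 77.8 and 79.8% in rsCBE replicates 1 to 5. The groups overlapped, with the highest value in WT replicate 1 and the lowest in rsCBE replicate 3. The next lengths were 24 nucleotides, with 11.6% ± 1.80 in WT and 10.9% ± 1.21 in rsCBE, and 30 nucleotides, with 6.61% ± 2.25 and 7.41% ± 1.35 (SD, n = 5 each). In-frame J2 joins of 33 nucleotides made up 1.44 to 1.61% in WT and 1.95 to 3.36% in rsCBE, ranges that did not overlap. They were singled out after their values were seen and were not tested.

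**Figure D2:**
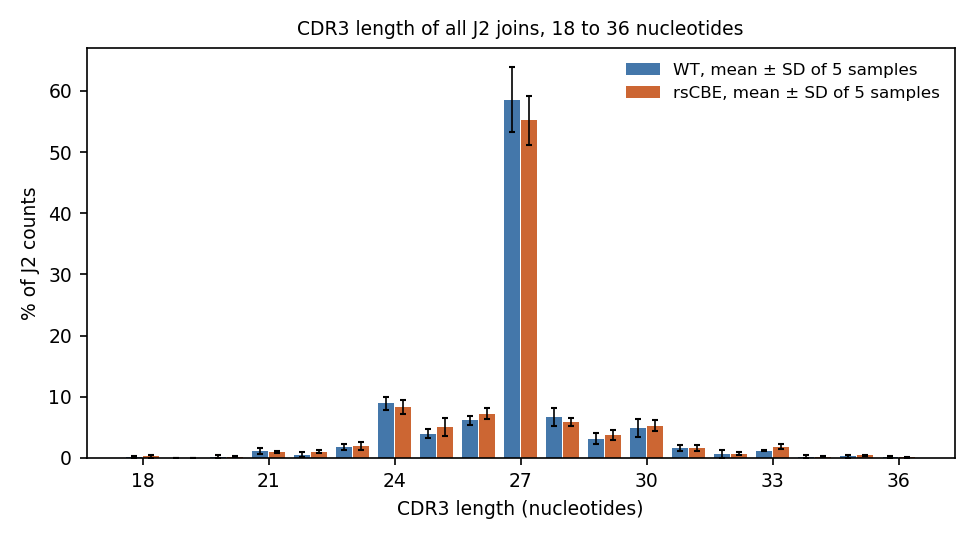
Percentage of J2 counts (vertical axis) at each CDR3 length from 18 to 36 nucleotides (horizontal axis), as mean ± SD of the 5 samples of each genotype, in-frame and out-of-frame joins together. The 27-nucleotide bar reaches 58.6% in WT and 55.2% in rsCBE and stands far above its neighbours.

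In-frame J2 joins were slightly longer than in-frame joins of the other J segments. Their mean length was 26.88, 26.85, 27.01, 26.74 and 26.79 nucleotides in WT replicates 1 to 5 and 26.86, 26.91, 26.94, 27.05 and 26.91 in rsCBE replicates 1 to 5. Within a sample they exceeded the other joins by 0.246 nucleotides on average, with a range from 0.0432 to 0.391 and all 10 samples above 0 (exact sign-flip permutation, adjusted p = 0.00391). J2 joins were longer than joins of Igkj1 by 0.304, of Igkj4 by 0.124 and of Igkj5 by 0.241 nucleotides (exact sign-flip permutation, adjusted p = 0.00293, 0.0391 and 0.00293, in 10, 9 and 10 of 10 samples). Igkj4 was the closest of the 3, and WT replicate 5 went the other way against it. The genotypes differed by 0.0840 nucleotides in J2 joins, which did not pass (exact permutation p = 0.175, adjusted 0.698). That difference was 0.0239 in single-library and 0.124 in split-library samples, and 0.0547 without rsCBE replicate 4. The in-frame lengths show where the gap lay: 33 nucleotides held 2.06% of in-frame J2 joins and 0.749% of in-frame joins of the other J segments over all samples, and 24 nucleotides held 11.2% and 14.6%.

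In-frame J2 joins mostly lacked the first J2 base alone. Exactly 7 of the 8 J2 bases remained in 68.4% ± 1.39 of in-frame counts for WT and 64.2% ± 4.78 for rsCBE (SD, n = 5 each). Next in size were 4 kept bases, with 10.2% ± 0.572 and 9.64% ± 1.14, and all 8, with 9.70% ± 1.62 and 13.7% ± 4.93, of which 4 bases had the higher mean in WT and 8 bases in rsCBE. Fewer than 4 remained in 2.49% ± 0.551 and 1.87% ± 0.244. Out-of-frame J2 joins had no such single peak: 8 bases remained in 26.5% ± 3.86 in WT and 25.9% ± 2.15 in rsCBE, 7 in 22.3% ± 5.58 and 19.9% ± 0.991, and 6 in 22.0% ± 4.95 and 24.03% ± 2.10 (SD, n = 5 each). The share with 7 bases lay from 56.6 to 70.2% among in-frame joins and from 16.5 to 29.4% among out-of-frame joins, so the 2 kinds did not overlap in any sample. The number of bases kept is fixed in part by the frame itself, and a base added by chance that equals the germline base counts as kept.

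**Figure D3:**
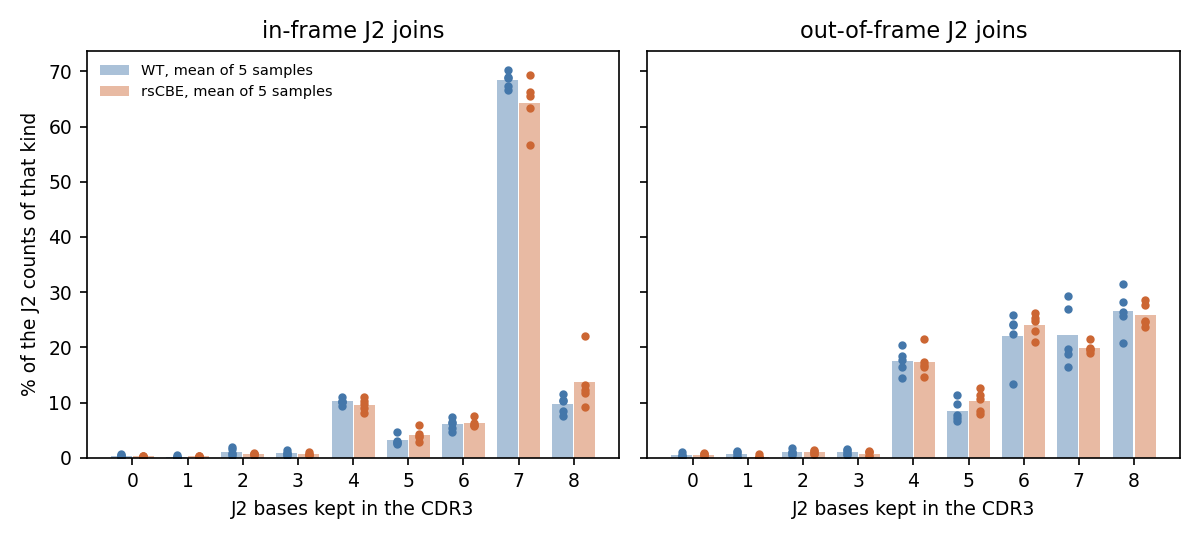
Percentage of in-frame (left) and out-of-frame (right) J2 counts by the number of germline J2 bases at the end of the CDR3, from 0 to 8 (horizontal axis), with bars for the mean of 5 samples of each genotype and points for samples. In-frame joins peak at 7 bases, with 68.4% in WT and 64.2% in rsCBE, and out-of-frame joins spread over 4 to 8 bases.

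All 8 J2 bases remained in 8.44, 11.6, 10.6, 7.65 and 10.2% of in-frame J2 counts in WT replicates 1 to 5. In rsCBE replicates 1 to 5 it was 12.3, 11.8, 13.3, 22.2 and 9.22%. All rsCBE samples but replicate 5 lay above all WT samples, and replicate 4 lay far above the rest. The difference was 4.05 percentage points and did not pass (exact permutation p = 0.0635, adjusted 0.127). It passed without rsCBE replicate 5 (5.18, exact permutation, adjusted p = 0.0317), fell to 1.94 without rsCBE replicate 4 and was 1.93 without the clonotypes high in 1 sample. The Igkv8-21 KQSYNLMYT clonotype printed above held 7.76% of the J2 counts of rsCBE replicate 4, and at most 0.0724% in any other sample. Complete ends were commoner with the other J segments, whose CDR3 part is 1 base shorter, at 52.5% of in-frame counts for Igkj1, 77.4% for Igkj4 and 59.2% for Igkj5 over all samples.

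At the end of the CDR3, the last codon was ACG, for threonine, in 98.3% ± 0.532 of in-frame J2 counts in WT and 98.8% ± 0.320 in rsCBE, and the codon before it was TAC, for tyrosine, in 84.9% ± 1.35 and 84.7% ± 0.372 (SD, n = 5 each). The residues tyrosine and threonine thus closed the CDR3 in 81.3 to 85.5% of in-frame J2 counts in WT and in 84.0 to 84.9% in rsCBE, which lay within the WT range. The lowest value was that of WT replicate 4. The commonest closing pair in the same position was tryptophan and threonine for Igkj1 (57.3%), phenylalanine and threonine for Igkj4 (82.3%) and leucine and threonine for Igkj5 (82.0%). The next J2 ends were PT, HT, LT and FT, at 3.80, 2.97, 1.92 and 1.69% in WT and 3.90, 3.91, 1.94 and 1.79% in rsCBE. Their codons CCC, CAC, CTC and TTC share the third base, the C that stands before ACG in Igkj2.

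At the third residue from the end, whatever followed it, proline was the commonest, at 77.8% ± 3.42 of in-frame J2 counts for WT and 75.6% ± 4.49 for rsCBE (SD, n = 5 each). Leucine followed with 7.05% ± 1.20 and 7.90% ± 1.14. The triplet PYT itself closed 66.6% ± 3.84 and 64.7% ± 4.51, and LYT 6.06% ± 0.977 and 6.81% ± 0.756. Methionine stood there in 2.21 to 5.55% in WT and in 3.16 to 6.20% in rsCBE replicates 1, 2, 3 and 5. In rsCBE replicate 4 it reached 16.3%, the sample that held the Igkv8-21 clonotype ending in MYT. In all, 71 closing pairs and 230 closing triplets of residues occurred among in-frame J2 joins.

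In most in-frame J2 joins no base came from neither germline end. V and J2 matches met with no base between them in 68.3% ± 2.80 of in-frame counts for WT and 66.99% ± 4.41 for rsCBE, and they shared bases in 16.3% ± 1.29 and 17.2% ± 0.930 (SD, n = 5 each). From 1 to 4 unmatched bases stood in 7.01% ± 1.65 and 9.04% ± 4.97, and 5 or more in 8.42% ± 0.502 and 6.78% ± 1.09. Among out-of-frame joins shared bases were commoner, at 42.6% ± 4.84 and 45.6% ± 2.31, and so were 1 to 4 unmatched bases, at 21.8% ± 2.66 and 20.4% ± 2.96. Sequence differences within a V segment count as unmatched bases here, so the class of 5 or more is not a count of added bases.

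J2 joined 112 of the 114 V segments of the table. The 10 commonest partners by mean share of J2 counts were Igkv2-137, Igkv8-16, Igkv1-135, Igkv19-93, Igkv5-43, Igkv9-120, Igkv8-27, Igkv8-19, Igkv17-127 and Igkv17-121. Igkv2-137, the V segment furthest from the J segments among those tested (chr6:67555497-67556216, plus strand, 3167 kb from Igkj2 in GRCm38), had a mean of 6.11% over all samples, close to the 5.99% of Igkv8-16. The order of these partners depended on the library set. Among single-library samples Igkv2-137 averaged 7.89% and Igkv8-16 1.94%, and among split-library samples Igkv8-16 averaged 8.69%, Igkv1-135 5.25% and Igkv2-137 4.93%. Igkv2-137 held 4.30, 7.03, 3.71, 2.71 and 5.73% of J2 counts in WT replicates 1 to 5 and 10.6, 9.67, 5.21, 4.09 and 8.10% in rsCBE replicates 1 to 5. The groups overlapped, with the highest values in rsCBE. Igkv8-16 (chr6:70386672-70387252, minus strand) held 1.26, 2.03, 9.25, 5.56 and 11.3% in WT replicates 1 to 5 and 2.02, 2.46, 10.2, 8.35 and 7.52% in rsCBE replicates 1 to 5. Its values divided by library set and not by genotype, from 1.26 to 2.46% in single-library and from 5.56 to 11.3% in split-library samples. Igkv1-135 divided the same way, from 1.20 to 1.48% and from 4.03 to 8.55%. Igkv5-43 divided the other way, from 4.32 to 5.56% in single-library and from 2.10 to 3.62% in split-library samples, and Igkv19-93 averaged 4.77 and 2.82%, with ranges that overlapped. Apart from Igkv2-137, Igkv8-16 and Igkv1-135, the 7 remaining partners averaged from 2.60% (Igkv17-121) to 3.597% (Igkv19-93) over all samples.

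**Figure D4:**
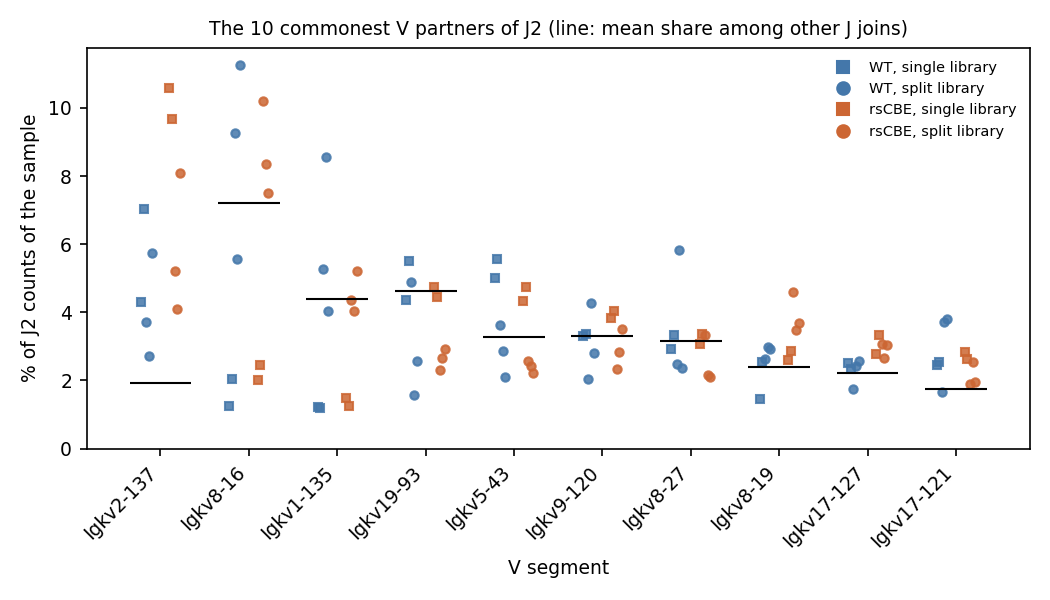
Percentage of a sample's J2 counts held by each of the 10 commonest V partners (horizontal axis), with squares for single-library and circles for split-library samples and a line for the mean share among joins of the other J segments. Igkv2-137 lies above its line of 1.93% in every sample, and Igkv8-16 and Igkv1-135 separate by library set.

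No V partner of J2 passed the test between the genotypes. edgeR's quasi-likelihood test over all V-J pairs, with the J total of each sample as the offset, called 0 of 69 tested J2 pairs and 0 of 270 pairs (0%) at an adjusted p under 0.05, with 3 J2 pairs and 9 pairs in all at an unadjusted p under 0.05. DESeq2 also called 0 of 270, with 12 at an unadjusted p under 0.05. With the library set as a term edgeR likewise called 0 of 270. That fit had 8 J2 pairs and 25 pairs in all at an unadjusted p under 0.05, and its smallest edgeR adjusted p for a J2 pair was 0.364. The 3 J2 pairs with the smallest p were Igkv8-21 (log2 difference 1.62 ± 0.51 SE), Igkv5-48 (-0.997 ± 0.47) and Igkv5-39 (-1.15 ± 0.54), each with an edgeR adjusted p of 0.989. In each, 1 sample stood above the rest of its group. Igkv8-21 held 9.84% of J2 counts in rsCBE replicate 4 and 1.74 to 2.02% in the other rsCBE samples. Igkv5-39 held 10.8% in WT replicate 1 and 1.08 to 2.23% in the other WT samples, and Igkv5-48 held 5.56% in WT replicate 4 and 0.563 to 2.88% in the other WT samples. Without that sample the log2 difference was 0.74 for Igkv8-21, -0.03 for Igkv5-39 and -0.49 for Igkv5-48. The same pairs compared between split-library and single-library samples gave 20 of 69 J2 pairs (12 higher and 8 lower in split-library samples) and 73 of 270 pairs in all (27%) by edgeR's quasi-likelihood test. Both genotypes have 2 single-library and 3 split-library samples, and the labels give no reason for the split.

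Within samples, a set of V segments took different shares of J2 joins and of other joins. Of 80 V segments tested with edgeR's quasi-likelihood test and the sample as a block, 5 were higher (6.25%) and 9 lower (11.2%) with J2, and the median log2 ratio over all 80 was -0.15. TMM scaling moved that median to -0.26 and called 4 higher and 13 lower. The balance of directions depended on the joins counted. Each clonotype counted once gave 6 higher and 2 lower of 62 tested. In-frame joins alone gave 1 and 5 of 72, and out-of-frame joins alone 3 and 0 of 43. Igkv2-137 had the smallest p of the 80, at 6.11% ± 2.65 of J2 counts and 1.93% ± 0.589 of other counts (SD, n = 10), a log2 ratio of 1.62 ± 0.12 SE (edgeR adjusted p = 1.58e-10) and a higher share with J2 in 10 of 10 samples. It passed in all of the 24 fits run, among them those of single-library samples alone (1.62), split-library samples alone (1.62), out-of-frame joins alone (1.38), WT alone (1.38) and rsCBE alone (1.84). Its share was 0.217% of Igkj1 joins, 4.10% of Igkj4 joins and 2.35% of Igkj5 joins, so J2 had the highest mean of the 4. The log2 ratio of J2 was 4.76 against Igkj1, 0.55 against Igkj4 and 1.32 against Igkj5 (edgeR adjusted p = 5.97e-14, 0.00293 and 5.19e-06).

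The other 4 V segments that were higher with J2 were less abundant. Igkv1-99 (log2 ratio 1.56 ± 0.43 SE), Igkv6-13 (1.24 ± 0.33) and Igkv8-18 (0.81 ± 0.21) held means of 0.374, 0.530 and 0.962% of J2 counts (edgeR adjusted p = 0.0212, 0.0204 and 0.0204). They passed in 6 of 8, 8 of 10 and 9 of 10 fits that each left out 1 sample, as Igkv1-99 fell under the count filter in 2 of them. Igkv1-99 held 1.29% of J2 counts in WT replicate 1 and at most 0.489% in the other samples. It was not among those called without WT replicate 1. The mean shares of these 3 were 0.0662, 0.0297 and 0.188% of Igkj1, 0.293, 0.276 and 0.693% of Igkj4 and 0.0998, 0.347 and 0.702% of Igkj5 joins. Igkv8-18 was higher with Igkj4 than with J2 in WT replicates 3, 4 and 5 and lower in the other samples. Igkv17-121 (0.52 ± 0.15, edgeR adjusted p = 0.0212) held 2.60% of J2 counts, 0.0971% of Igkj1, 3.34% of Igkj4 and 2.36% of Igkj5 counts. Against Igkj4 alone its log2 ratio was -0.41. It passed in 6 of the 10 fits that left out 1 sample.

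The 9 V segments that were lower with J2 included the minus-strand Igkv4-58 (log2 ratio -1.66 ± 0.40 SE), Igkv8-34 (-1.20 ± 0.36), Igkv4-73 (-1.03 ± 0.35), Igkv4-69 (-0.87 ± 0.26), Igkv12-44 (-0.86 ± 0.29) and Igkv12-46 (-0.70 ± 0.21), each under 1% of J2 counts on average. The plus-strand Igkv1-122 (-0.81 ± 0.28) was of similar abundance. The abundant minus-strand segments Igkv19-93 (-0.38 ± 0.12) and Igkv8-16 (-0.32 ± 0.10) completed the group, and their edgeR adjusted p were 0.0347 and 0.0212. Which J segment the low J2 share stood against varied. Igkv4-58 held 0.0841% of J2, 0.0935% of Igkj1, 0.264% of Igkj4 and 0.558% of Igkj5 joins. Igkv8-34 held 0.207, 0.214, 0.768 and 0.570% in the same order. The J2 shares of Igkv4-58 rested on 37 counts over the 10 samples, with none in WT replicates 4 and 5, and those of Igkv8-34 on 66 counts. Igkv4-73 held 0.643% of J2, 0.253% of Igkj1, 0.627% of Igkj4 and 2.01% of Igkj5 joins, and its log2 ratio was 1.18 against Igkj1, -0.34 against Igkj4 and -1.92 against Igkj5 (edgeR adjusted p = 0.0248, 0.582 and 0.00215). Igkv4-69 held 0.520, 0.439, 0.634 and 1.53% in the same order, with log2 ratios of 0.12, -0.33 and -1.50 (edgeR adjusted p = 0.821, 0.581 and 0.000363). Igkv19-93 and Igkv8-16 held 7.49 and 9.29% of Igkj1 joins, and against Igkj4 alone their log2 ratios turned to 0.09 and 0.08. Against Igkj5 alone that of Igkv19-93 turned to 0.36 and that of Igkv8-16 was -0.09. Igkv12-46 held 0.888% of J2, 2.22% of Igkj1, 0.968% of Igkj4 and 0.921% of Igkj5 joins, and its log2 ratio was -1.36 against Igkj1, -0.10 against Igkj4 and -0.05 against Igkj5 (edgeR adjusted p = 1.66e-05, 0.834 and 0.886). Igkv12-44 likewise passed against Igkj1 (-1.25) and not against Igkj4 (-0.59) or Igkj5 (-0.49). Igkv4-58 passed in 9 and Igkv12-46 in 8 of the 10 leave-one-out fits, Igkv8-34 in 6, Igkv4-69 and Igkv8-16 in 5 each, Igkv4-73, Igkv19-93 and Igkv1-122 in 2 each, and Igkv12-44 in 1. The number of V segments called fell from 14 to 3 without WT replicate 1, 5 without WT replicate 2, 9 without WT replicate 5, 1 without rsCBE replicate 1, 9 without rsCBE replicate 2, 8 without rsCBE replicate 4 and 7 without rsCBE replicate 5. It was 10 without rsCBE replicate 3, 15 without WT replicate 3 and 21 without WT replicate 4. Igkv2-137 was called in each of those fits. Against Igkj4 alone edgeR called 15 of 60 V segments, and Igkv2-137 was the 1 shared with the 14. Igkv1-99, Igkv4-58 and Igkv8-34 were not tested there.

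**Figure D5:**
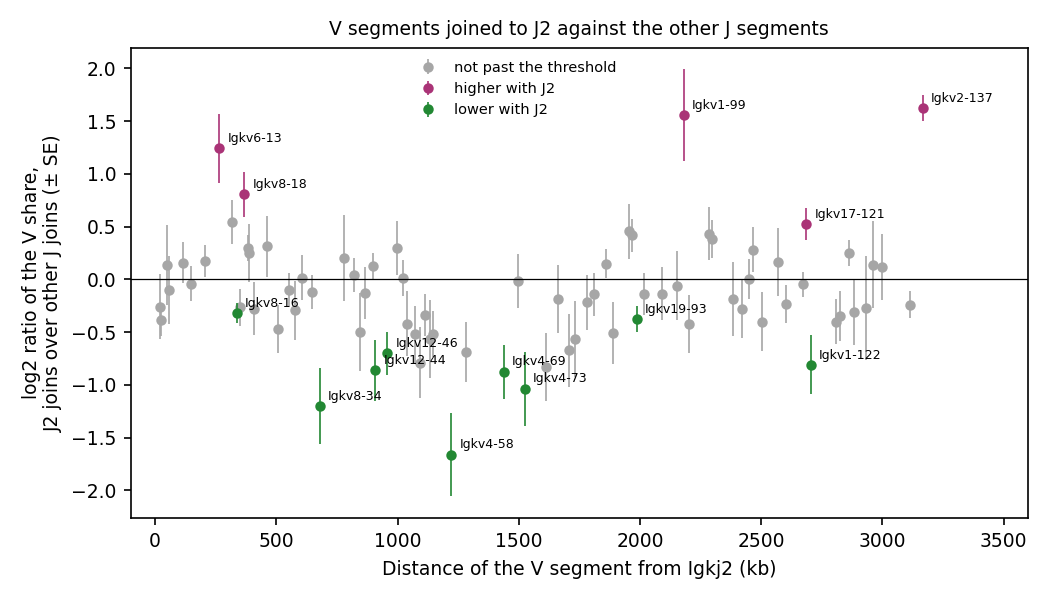
log2 ratio of a V segment's share of J2 joins to its share of other joins (vertical axis, ± SE, edgeR) against its distance from Igkj2 in kb (horizontal axis) for the tested V segments found in the annotation, with the 5 higher and 9 lower ones coloured and named. Igkv2-137 lies at the far right at 1.62, and 4 of the 9 lower ones belong to the middle of the locus.

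V segments were also grouped by the number in their name, which follows the order along the locus: up to 45 as proximal, 46 to 90 as middle and from 91 as distal. Proximal V segments held 36.8 to 48.1%, middle ones 14.5 to 26.6% and distal ones 34.4 to 48.4% of J2 counts over the 10 samples. The middle group had no V segment higher and 4 of 23 lower with J2, with a median log2 ratio of -0.52. The proximal group had 2 of 28 higher and 3 lower (median -0.07), and the distal group 3 of 29 higher and 2 lower (median -0.06). Of 45 V segments that join by inversion 1 was higher and 8 lower, and of 34 that join by deletion 4 were higher and 1 lower, beside 5 and 9 of all 80.

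Summed over counts, J2 joins used distal V segments more than the other joins, by 3.55 percentage points (9 of 10 samples above 0, exact sign-flip permutation, adjusted p = 0.0208). They used middle V segments less by -3.07 (9 of 10 samples below 0, adjusted p = 0.0313 by exact sign-flip permutation) and V segments that join by inversion less by -3.86 (9 of 10 below 0, adjusted p = 0.0234 by exact sign-flip permutation). WT replicate 4, the shallowest sample, went the other way in all 3 measures, by -1.70, 7.24 and 4.32 points. The middle result passed without WT replicate 3 or 4 (-3.13 and -4.22) and in none of the other 8 fits that left out 1 sample. Without Igkv2-137 none of the 3 passed, at 1.02, -2.38 and -1.45. Over all alternatives other than leaving out 1 sample, the inversion result passed in 5, did not pass in 7 and turned sign in 1. The distal result passed in 7, did not pass in 5 and turned sign in 1, and the middle result passed in 4 and did not in 9. The 4 single-library samples alone were too few for any of them to pass. Against single J segments the distal gap was -2.03 to Igkj1, 2.68 to Igkj4 and 8.57 to Igkj5, and the inversion gap 2.30, -1.88 and -9.82. The middle gap was -0.148 to Igkj1 and -0.934 to Igkj4, neither of which passed, and -6.58 to Igkj5 (exact sign-flip permutation, adjusted p = 0.92, 0.794 and 0.0117). The proximal share differed by -0.483 (exact sign-flip permutation p = 0.635). Between the genotypes none of the 4 measures of J2 joins passed, with differences of 1.42 for proximal, -3.34 for middle, 1.92 for distal and -4.32 points for inversion (exact permutation, adjusted p = 0.804, 0.222, 0.899 and 0.508). Leaving out 1 sample moved these from -0.151 (without rsCBE replicate 4) to 2.62 (without rsCBE replicate 1) for proximal, from -4.30 (without WT replicate 1) to -1.50 (without WT replicate 4) for middle and from 0.367 (without rsCBE replicate 1) to 3.86 (without rsCBE replicate 4) for distal V segments, and none passed. The proximal difference turned sign between the library sets, at -2.68 in single-library and 4.16 in split-library samples. In the same order the others were -1.40 and -4.63 for middle, 4.08 and 0.475 for distal and -6.19 and -3.08 for inversion.

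The same J2 clonotypes recurred across samples. Of 5898 distinct J2 clonotypes, 42 occurred in all 10 samples and held 35.3% ± 5.39 of J2 counts (SD, n = 10). Another 4361 occurred in 1 sample only and held 14.6% ± 1.44. Both numbers depend on depth, since WT replicate 4 had only 193 J2 clonotypes. The 42 held 47.9% of J2 counts in that sample and 28.6 to 39.9% in the others. The Igkv8-16 QQHLHIPYT clonotype was the largest of its sample in 4 samples and the Igkv2-137 MQHLEYPYT clonotype in 3. In WT the former held 0.456, 1.03, 4.55, 2.28 and 6.04% of J2 counts and the latter 1.96, 2.97, 1.67, 1.14 and 3.07% in replicates 1 to 5. In rsCBE they held 1.002, 1.30, 5.27, 4.03 and 4.38% and 4.62, 3.94, 2.35, 1.53 and 4.18%. The first again divided by library set, and the second overlapped between the genotypes.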

How the data were processed

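Igk amplicon libraries from RNA were read as 151-bp pairs on a MiSeq, per the labels' protocols. The deposited table holds raw counts for each V call, J call and CDR3 found in 16 libraries. The genome build mm10 is named in the submitters' processing notes, and the V and J caller, germline set and read filters are not given in the sources used here. V calls of near-identical segments may be split or merged by that calling, so V names are as deposited.

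Alleles were merged, parts a and b of a replicate were added, and 49 duplicate lines of 49079 were merged (12 of the 11579 J2 lines). Germline ends and coordinates came from GENCODE M21 (GRCm38), in which 112 of 114 V segments were matched. Total counts per sample ran from 3109 to 24083, with 702 to 6583 J2 counts. Single values were compared between genotypes by exact permutation over samples (smallest p 0.00794 with 5 against 5) and J2 with other J segments by exact sign-flip permutation over samples, both two-sided, with Benjamini-Hochberg adjustment over the J segments. V partners were tested with edgeR's quasi-likelihood test (edgeR 4.0.16, R 4.3.3) with filtering of low counts, the J totals as offsets and adjustment over all pairs or V segments tested, and with DESeq2 1.42.0 as an alternative. Python 3.11.15 and scipy 1.17.1 were used for the rest.

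Alternatives were TMM factors, no count filter, each clonotype counted once, clonotypes of 1 count left out, a single part, library sets, reading frame, genotypes alone, a replicate block and each sample left out. Comparisons with Igkj1, Igkj4 or Igkj5 alone, and values without Igkv2-137 or without clonotypes high in 1 sample (over 5% of a J segment's counts and over 3 times the next sample), were added after seeing the data. V segments named are the 10 with the highest mean share of J2 counts, those past the threshold of 0.05 against other J segments, and the 3 pairs with the smallest p between genotypes. Clonotypes named are the 10 with the highest mean share, and others are said to be chosen after their values were seen. The members and lists were chosen with earlier results of these data known. The further mutant line that the design text mentions was not analysed here.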

Additional observations from a re-analysis of the deposited data

Results flagged for a closer look

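In 8 of 82 groups of 5 samples, the gap between the highest or lowest value and its nearest neighbour, divided by the whole range of the group, was above 0.71. Chance gives about 1 in 20 such groups, or 4.1 of 82, if the groups are independent and chosen without regard to their values. These groups included V segments named for their small p, and V segments together with their own clonotypes. The 8 therefore cannot be weighed against the 4.1. Among V partners, Igkv5-39 held 10.8% of J2 counts in WT replicate 1, against 1.08 to 2.23% in the other WT samples. Its QNGHSFPYT clonotype held 9.16% there and 0.614 to 1.42% in the others. Igkv8-21 held 9.84% in rsCBE replicate 4, against 1.74 to 2.02% in the other rsCBE samples. Igkv8-27 held 5.84% in WT replicate 4, the shallowest sample, against 2.36 to 3.33%. Igkv8-19 held 1.46% in WT replicate 1 against 2.55 to 2.99% in the other WT samples, and Igkv17-127 held 1.73% in WT replicate 3 against 2.34 to 2.56%. Igkv4-58 held 0.224% in rsCBE replicate 3 against 0.0556 to 0.0835% in the other rsCBE samples, but it had only 37 J2 counts over all 10 samples. The Igkv16-104 QQHNEYPYT clonotype held 1.18% in rsCBE replicate 3 against 1.92 to 2.05%.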

How the results depend on the processing

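The in-frame share of J2 joins exceeded that of other joins in all 10 fits that left out 1 sample (4.92 to 6.03 points), as did the in-frame length (0.230 to 0.269 nucleotides). Leaving out 1 sample gave ranges of -4.07 to -2.17 for the genotype difference in the J2 share, 1.94 to 5.18 in complete J2 ends and -0.151 to 2.62 in proximal V segments. For J2 minus other joins it gave -0.928 to 0.0795 in proximal and -4.22 to -2.79 in middle V segments, and 1 to 21 V segments called. Igkv9-120 lay between -0.0847 and 0.0156, turning sign without WT replicate 3. Depth limits WT replicate 4 most, with 702 J2 counts.

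The genotype difference in the J2 share passed at -3.53 without clonotypes of 1 count, -3.30 in part a alone and -3.005 without clonotypes high in 1 sample. The middle gap did not pass in part a (-2.95) or without those clonotypes (-2.50). Single-library samples alone gave gaps of 4.998 (in-frame), 0.241 (length), -4.66 (middle), 5.62 (distal) and -5.99 (inversion), a proximal genotype difference of -2.68 and 25 V segments called. Split-library samples alone gave 5.82, 0.249, -2.01, 2.17 and -2.44, 1 V segment called and 0.0763 for Igkv9-120. Such sign-flip tests cannot go below p = 0.125 with 4 samples or 0.03125 with 6, before adjustment, by exact permutation.

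Against Igkj1 alone the gaps were 0.643 (in-frame), 2.18 (proximal), -0.148 (middle), -2.03 (distal) and 2.30 (inversion), with 39 V segments called and log2 ratios of 1.18 for Igkv4-73 and 0.12 for Igkv4-69. Against Igkj4 alone they were -0.934 (middle) and -1.88 (inversion), with 15 V segments called and log2 ratios of 0.0812 for Igkv8-16, 1.05 for Igkv1-135, 0.0944 for Igkv19-93, 0.32 for Igkv9-120, 0.0501 for Igkv8-27, -0.50 for Igkv8-19, -0.64 for Igkv17-127 and -0.41 for Igkv17-121. Against Igkj5 alone 28 V segments were called, with 1.20 for Igkv1-135, 0.36 for Igkv19-93, -0.49 for Igkv5-43, 0.24 for Igkv9-120, -0.0536 for Igkv8-19 and -0.20 for Igkv17-127.

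With each clonotype counted once the gaps were 0.528 (proximal) and -1.88 (inversion), the distal genotype difference -0.131 and 8 V segments were called. Part b alone gave 0.408 (proximal), 2.91 (distal) and -3.21 (inversion). Without Igkv2-137 they were 1.36, 1.02 and -1.45, and -2.38 for middle V segments. In-frame joins alone gave -3.77 (middle) and 6 V segments called. Out-of-frame joins alone gave -1.22 (middle), 2.42 (distal) and -1.07 (inversion), 3 V segments called, 0.10 for Igkv5-39 between genotypes, -0.0125 for Igkv5-43 and -0.0549 for Igkv8-19. WT alone gave 1 V segment called and 0.11 for Igkv8-27, and rsCBE alone 16 called, 8 of them among the 14, with -0.14 for Igkv5-43 and 0.0944 for Igkv9-120. The cause was not tested for any of these.

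Replicate numbers were not taken as pairs. The V shares of J2 joins, as deviations from the genotype mean, correlated at 0.0969 to 0.780 between same-numbered samples. Only replicate 3 matched its own number best. WT replicates 1 and 2 best matched rsCBE replicates 2 and 1, and WT replicates 4 and 5 best matched rsCBE replicate 3. Each best match thus lay within the same library set. With a replicate block the J2 share difference stayed at -3.30 (exact permutation p = 0.0625, the smallest 5 pairs allow), 0 of 270 V-J pairs were called by edgeR, with 21 instead of 9 at an unadjusted p under 0.05, and no call changed.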
